A study of Mus musculus with 12 samples.

Results

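The cytochrome P450 genes of families 1 to 3 were examined in mouse liver 4 days after an adenovirus carrying human apolipoprotein F (hApoF) or green fluorescent protein (GFP) was given. A gene was a member if a probe set of the array was annotated to its symbol alone and that symbol began with Cyp1 or Cyp2 followed by a letter, or with Cyp3a, pseudogene symbols and Cyp2c70 left out. This gave 57 members in 17 subfamilies among 22180 named genes, and where a gene had several probe sets the brightest one on average stood for it.

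All 12 livers came from male C57BL6/J mice aged 8 to 10 weeks that had received an Ad5 virus by tail vein, and all were taken after 6 h without food. The control group was given Ad-GFP (replicates 1 to 6) and the other group Ad-hApoF (replicates 7 to 12), with 1 array per sample. Both groups carried a virus, uninjected livers were not analysed here, and the labels give neither the viral dose nor the promoter that drove the transgene. The labels do not say that each array was a separate animal, so the p-values speak only to the spread among these arrays, which may be technical. No batch is labelled. Values are log2 RMA values, the unit of every level below, and differences are hApoF minus GFP on that scale.

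Cytochromes P450 are heme enzymes of the endoplasmic reticulum that insert an oxygen atom into their substrate, with electrons passed on by a reductase and by cytochrome b5. Families 1 to 3 handle most drugs and foreign chemicals in liver, and also fatty acids, steroids, retinoids and vitamin D. Many are switched on by the receptors AhR (family 1), CAR (Cyp2b and Cyp2c genes) and PXR (Cyp3a genes), and many sit in clusters of closely related copies.

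The DNA just before the start of 6 members is shown because these are neighbours or relatives that differed in their calls. Cyp2c55, Cyp2c29, Cyp2c37 and Cyp2c50 come from the Cyp2c cluster, and Cyp3a13 and Cyp3a59 are the Cyp3a genes that passed the test. Each line gives 250 bases ending just before the annotated start, from RefSeq with the build GRCm38.p6, 5′ to 3′ on the gene's strand. Capitals mark matches to AGGTCA on either strand (the core of a nuclear receptor site) and to TATAAA on the gene's strand (a TATA box).
Cyp2c55, chr19:39006769-39007018, plus strand: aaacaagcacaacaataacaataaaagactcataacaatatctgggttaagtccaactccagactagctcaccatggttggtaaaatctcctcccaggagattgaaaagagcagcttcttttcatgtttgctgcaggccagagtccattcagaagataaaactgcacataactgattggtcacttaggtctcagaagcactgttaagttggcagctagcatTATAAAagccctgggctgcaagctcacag
Cyp2c29, chr19:39286835-39287084, plus strand: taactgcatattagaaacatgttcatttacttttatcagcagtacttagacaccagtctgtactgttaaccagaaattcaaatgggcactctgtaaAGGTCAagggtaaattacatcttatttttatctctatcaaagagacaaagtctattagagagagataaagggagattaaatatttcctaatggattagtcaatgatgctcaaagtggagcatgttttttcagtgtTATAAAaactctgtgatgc
Cyp2c37, chr19:39992174-39992423, plus strand: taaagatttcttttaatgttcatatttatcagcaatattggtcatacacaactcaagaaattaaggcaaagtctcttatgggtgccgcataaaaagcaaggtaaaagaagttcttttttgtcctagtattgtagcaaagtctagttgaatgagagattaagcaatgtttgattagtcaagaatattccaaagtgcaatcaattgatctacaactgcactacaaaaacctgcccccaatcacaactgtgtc
Cyp2c50, chr19:40089429-40089678, plus strand: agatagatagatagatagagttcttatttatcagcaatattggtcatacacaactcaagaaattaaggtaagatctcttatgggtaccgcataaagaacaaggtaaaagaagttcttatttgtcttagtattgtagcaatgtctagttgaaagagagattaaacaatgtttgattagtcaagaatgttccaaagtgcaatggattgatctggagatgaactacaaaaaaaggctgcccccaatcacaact
Cyp3a13, chr5:137921620-137921869, minus strand: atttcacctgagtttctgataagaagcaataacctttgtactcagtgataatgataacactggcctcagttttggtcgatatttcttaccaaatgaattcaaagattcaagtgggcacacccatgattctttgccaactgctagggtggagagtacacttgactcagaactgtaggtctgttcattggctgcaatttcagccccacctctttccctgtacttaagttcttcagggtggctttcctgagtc
Cyp3a59, chr5:146079008-146079257, plus strand: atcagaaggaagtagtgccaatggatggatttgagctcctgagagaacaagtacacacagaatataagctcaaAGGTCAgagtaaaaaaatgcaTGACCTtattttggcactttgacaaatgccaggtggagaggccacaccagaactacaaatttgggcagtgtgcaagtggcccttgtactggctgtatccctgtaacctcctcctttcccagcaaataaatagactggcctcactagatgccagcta

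The Cyp2c37 and Cyp2c50 stretches were 84.3% identical in a global alignment, and that of Cyp2c55 was 50.6% identical to Cyp2c50. Cyp3a59 was 49.1% identical to Cyp3a13 but 94.8% identical to Cyp3a25. Of the members 49 of 57 had such a stretch in the RefSeq table. AGGTCA or its reverse complement was found in 14 of them (28.6%), against 13.8% of the stretches of all 27025 genes. TATAAA was found in 16 (32.7%, against 8.12% of all genes), and GCGTG, the core of the site bound by AhR, was found on either strand in 9 (18.4%, against 28.2%). GTTAAT, part of the HNF1 site, was found on either strand in 6 (12.2%, against 6.52%). GCGTG and GTTAAT were not in the 6 stretches shown. A match describes letters only. Some of these stretches are near copies, so their matches are not independent of each other. Cyp3a25, Cyp3a57 and Cyp3a59, which all carry AGGTCA or its reverse complement, were 88.9% to 94.8% identical.

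Of the 57 members 7 rose in hApoF livers, 3 fell and 47 did not pass (limma over all genes, adjusted p below 0.05). The members that rose were Cyp2c23, Cyp2c50, Cyp2c54, Cyp2d10, Cyp2d26, Cyp2d40 and Cyp3a13, and those that fell were Cyp2c55, Cyp2u1 and Cyp3a59. Members called higher made up 12.3%, against 2.11% of all genes, and members called lower 5.26%, against 4.8% of all genes. Either call was given to 17.5% of members and to 6.91% of all genes. An unadjusted p below 0.05 in limma was seen in 19 of the 57 members and in 4716 of all 22180 genes. The median difference was 0.09 over the members and 0.03 over all genes. A positive difference was seen in 41 members, in 37 when arrays were centred on their medians and in 35 when they were quantile normalized again, that is 71.9%, 64.9% and 61.4%, against 57.7%, 49.6% and 55% of all genes.

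The 10 called members all came from the 35 members whose mean lay above the median of all genes (5.29). The other 22 were dimmer than that, and 0 of these passed in limma. Of the 22, 1 had an unadjusted p below 0.05, against 4716 of all 22180 genes, bright and dim together. The share among dim genes alone was not counted. When only brighter genes were tested, 13 of 35 members passed, 9 higher and 4 lower, against 19% of the genes in that test (6.24% higher, 12.8% lower). The members added by that test were Cyp1a2, Cyp2b10 and Cyp2d13.

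**Figure D1:**
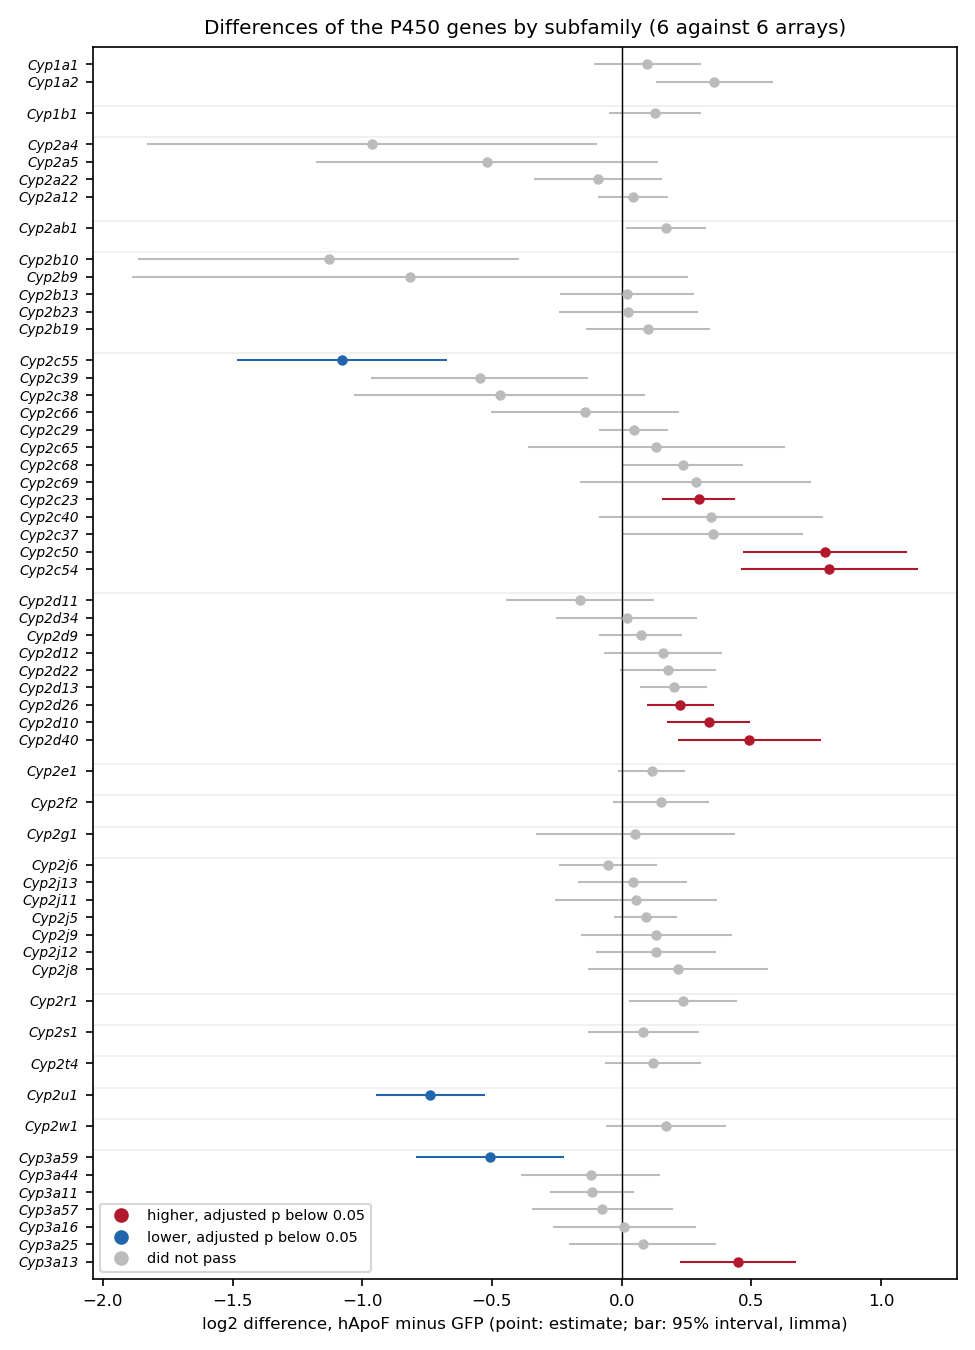
Log2 difference, hApoF minus GFP, of each of the 57 members (horizontal axis), grouped by subfamily, with points for limma estimates from 6 against 6 arrays and bars for 95% intervals. Red points passed as higher (7 genes), blue as lower (3 genes) and grey did not pass; the differences run from -1.13 (Cyp2b10, not passing) to 0.80 (Cyp2c54).

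Members of the Cyp2c subfamily, many of which turn arachidonic acid into epoxides or hydroxy acids, moved in both directions. Among the 13 members there were 3 risers, 1 faller and 9 that did not pass, and the median difference was 0.24. Cyp2c54 rose 1.74-fold. Its lowest, median and highest values were 9.36, 9.75 and 10.38 in GFP livers and 10.37, 10.66 and 10.91 in hApoF livers. The groups overlapped only through GFP 4, the highest GFP array. The difference was 0.80 (SE 0.16, limma adjusted p = 0.0063). Cyp2c50, its neighbour on the chromosome, rose 1.72-fold and showed the same layout. Its values were 9.58, 9.94 and 10.46 in GFP livers and 10.45, 10.79 and 10.997 in hApoF livers, a difference of 0.78 (SE 0.15, limma adjusted p = 0.0043).

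Cyp2c23, an arachidonic acid epoxygenase gene that lies apart from the main Cyp2c cluster, rose 1.23-fold. Its values were 11.27, 11.38 and 11.46 in GFP livers and 11.54, 11.67 and 11.77 in hApoF livers, with no overlap (difference 0.30, SE 0.07, limma adjusted p = 0.013). Groups without overlap were found for 5 members (8.77%), against 4.98% of all genes.

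Cyp2c55, which also oxidises arachidonic acid and is inducible by foreign chemicals, fell 2.11-fold. Its values were 7.64, 8.47 and 8.79 in GFP livers and 6.85, 7.23 and 7.70 in hApoF livers, a difference of -1.08 (SE 0.19, limma adjusted p = 0.0024). GFP 4 was again the array that met the other group, here as the lowest GFP value. A second, dimmer probe set of Cyp2c55 pointed the other way, at 6.87 ± 0.19 (SD, n = 6) with GFP and 7.08 ± 0.20 (n = 6) with hApoF. Averaging both probe sets left a difference of -0.43 (limma adjusted p = 0.0034).

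**Figure D2:**
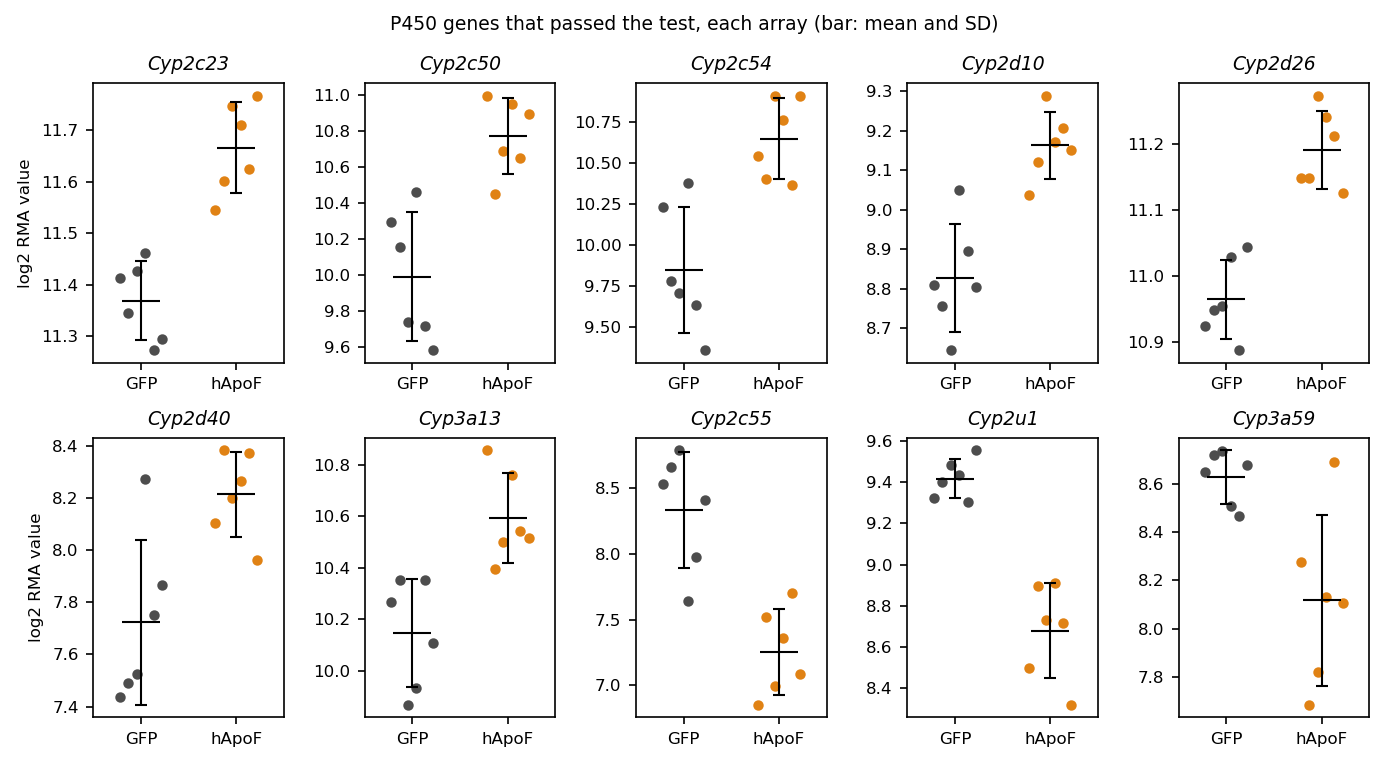
Log2 RMA value (vertical axis, its own range per panel) of each of the 6 GFP and 6 hApoF arrays for the 10 members that passed the test, with the mean and SD in black. The groups are apart in Cyp2c23, Cyp2d26, Cyp3a13 and Cyp2u1 and meet or overlap in the other 6 genes, as in Cyp2d40, where GFP 4 lies at 8.28.

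Taken in chromosome order, the Cyp2c members with negative differences lay on the side of Cyp2c55 and those with the highest positive differences on the side of Cyp2c50. Cyp2c39, a retinoic acid hydroxylase gene, and Cyp2c38 next to it had differences of -0.55 and -0.47 (limma adjusted p = 0.11 and 0.33). From Cyp2c68 onwards the differences were 0.24, 0.34 in Cyp2c40, 0.29 in Cyp2c69 and 0.35 in Cyp2c37 (limma adjusted p = 0.23 to 0.47), before Cyp2c54 and Cyp2c50. Cyp2c29, a liver gene induced through CAR, lay between the negative members with a difference of 0.05 (95% interval -0.09 to 0.18, limma adjusted p = 0.73). GFP livers had 12.28 ± 0.09 (SD, n = 6) and hApoF livers 12.32 ± 0.04 (n = 6). No test of order was made. The neighbours are related genes, and whether their probe sets read each other's transcripts was not tested.

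**Figure D3:**
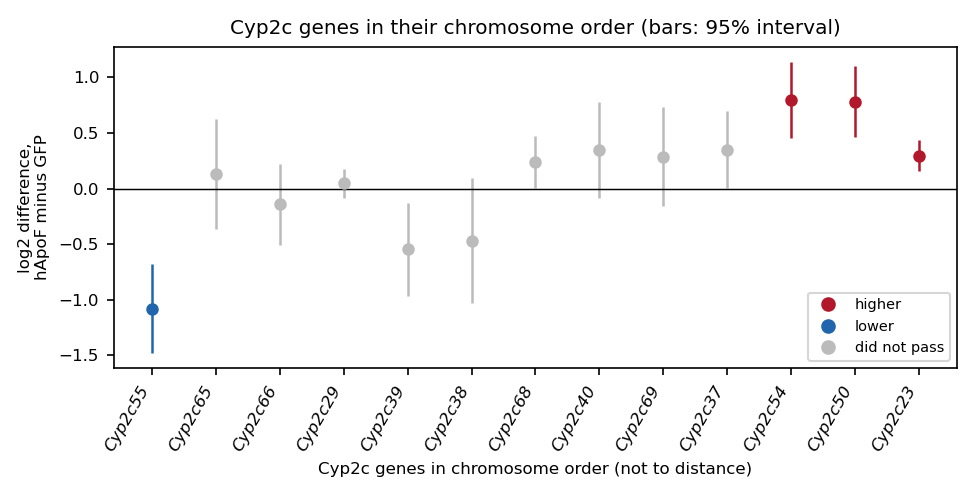
Log2 difference, hApoF minus GFP (vertical axis, bars for 95% intervals), of the 13 Cyp2c members in chromosome order without distances. Cyp2c55 at -1.08 stands at the left and Cyp2c54 at 0.80, Cyp2c50 at 0.78 and Cyp2c23 at 0.30 at the right.

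Of 9 Cyp2d members 3 rose and 6 did not pass. The median difference was 0.18, and 8 differences were positive (7 when arrays were centred or quantile normalized again). Enzymes of this subfamily oxidise basic drugs, and in mouse some hydroxylate steroids. Cyp2d10 rose 1.26-fold, from 8.65, 8.81 and 9.05 (lowest, median and highest) in GFP livers to 9.04, 9.16 and 9.29 in hApoF livers (difference 0.34, SE 0.08, limma adjusted p = 0.013). Only GFP 4 reached the hApoF range.

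Cyp2d26 and Cyp2d40 passed less firmly. Cyp2d26 had 10.89, 10.95 and 11.04 in GFP livers and 11.13, 11.18 and 11.27 in hApoF livers, with no overlap (difference 0.23, SE 0.06, limma adjusted p = 0.034). It lost its call without GFP 1, 2, 3 or 5 or hApoF 9, 10 or 11 (limma adjusted p = 0.061 to 0.075), with arrays centred (0.084) and quantile normalized again (0.065). Cyp2d40 had 7.44, 7.64 and 8.28 in GFP livers and 7.96, 8.23 and 8.38 in hApoF livers (difference 0.49, SE 0.13, limma adjusted p = 0.033). Its call was lost without GFP 1, 2, 3 or 5 or hApoF 8, 9, 10 or 11 (limma adjusted p = 0.053 to 0.079). Without GFP 4, whose 8.28 was the highest GFP value, the difference was 0.60 (limma adjusted p = 0.0017).

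The remaining Cyp2d members did not pass. Cyp2d9, a male-specific steroid hydroxylase gene, stood at 10.77 ± 0.13 (SD, n = 6) with GFP and 10.84 ± 0.09 (n = 6) with hApoF (difference 0.07, 95% interval -0.09 to 0.23, limma adjusted p = 0.63). Cyp2d13, which RefSeq lists as a transcribed pseudogene, had groups that did not overlap but missed the threshold (difference 0.20, limma adjusted p = 0.060). It passed with trend and robust settings and among brighter genes only.

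Cyp3a enzymes, the main PXR-driven drug oxidases, also split. Among its 7 members were 1 riser, 1 faller and 5 that did not pass, and the median difference was -0.08. Cyp3a13, which lies apart from the main Cyp3a cluster, rose 1.36-fold, from 9.87, 10.19 and 10.35 in GFP livers to 10.39, 10.53 and 10.86 in hApoF livers, with no overlap (difference 0.45, SE 0.11, limma adjusted p = 0.018). Cyp3a59 fell 1.42-fold, from 8.47, 8.67 and 8.73 to 7.69, 8.12 and 8.69 (difference -0.51, SE 0.13, limma adjusted p = 0.033). Within the hApoF group hApoF 11, at 8.69, lay among the GFP values. The Cyp3a59 call was lost without GFP 1, 2, 3 or 6 or hApoF 8, 9, 10 or 12 (limma adjusted p = 0.057 to 0.075), and without GFP 4 and hApoF 12 together (0.054).

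Cyp3a11, the most studied PXR target of mouse liver, did not pass. Its values were 11.36, 11.43 and 11.58 in GFP livers and 11.11, 11.39 and 11.44 in hApoF livers (difference -0.11, 95% interval -0.28 to 0.05, limma adjusted p = 0.42). Cyp3a25, the near copy of Cyp3a59, had a difference of 0.08 (95% interval -0.20 to 0.36). Neither the difference between these neighbours nor whether their probe sets read each other's transcripts was tested. A further 3 probe sets on the array were shared by several genes with a P450 gene of these families among them, and were assigned to none.

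Cyp2u1, an omega-hydroxylase of long-chain fatty acids and the sole member of its subfamily, fell 1.67-fold and had the lowest adjusted p of the members. Its values were 9.30, 9.42 and 9.55 in GFP livers and 8.32, 8.72 and 8.91 in hApoF livers. All GFP arrays lay above all hApoF arrays. The difference was -0.74 (SE 0.10, limma adjusted p = 2.3e-04). It passed in all 20 alternative fits, as did Cyp2c23, Cyp2c50, Cyp2c54, Cyp2c55, Cyp2d10 and Cyp3a13.

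The 4 Cyp2a and 5 Cyp2b members included the members with the widest spread between arrays. In limma 0 of the 9 passed. An unadjusted p below 0.05 was seen in 2, Cyp2a4 and Cyp2b10, against 4716 of all 22180 genes. Cyp2b10, the classic CAR target induced by phenobarbital, had the largest difference of any member, 2.19-fold lower in hApoF livers. Its values were 5.99, 6.56 and 7.14 in GFP livers and 4.27, 5.31 and 6.92 in hApoF livers (difference -1.13, SE 0.35, limma adjusted p = 0.062). The array at 6.92 was hApoF 9, and 5.44 ± 0.94 (SD, n = 6) was the hApoF mean. Without hApoF 9 the difference was -1.43 and passed (limma adjusted p = 0.0056). It also passed without GFP 4 (limma adjusted p = 0.047). These were its highest hApoF array and its lowest GFP array, so leaving either out widens the difference. Cyp2b10 did not pass in the other 10 fits without 1 array. Over the 20 alternative fits it passed in 3 and did not pass in 17.

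Cyp2a4, a testosterone hydroxylase gene more active in females, had 7.97, 9.50 and 10.37 in GFP livers and 7.30, 8.36 and 9.46 in hApoF livers (difference -0.96, SE 0.41, limma adjusted p = 0.18). Cyp2a5, its close copy and the coumarin hydroxylase gene, had 4.93, 5.92 and 6.30 against 4.34, 5.25 and 6.08 (difference -0.52, limma adjusted p = 0.36). Whether the probe sets of Cyp2a4 and Cyp2a5 read each other's transcripts was not tested. Cyp2b9, a gene higher in female liver, ran from 3.56 to 6.55 in GFP livers and from 3.28 to 5.57 in hApoF livers (difference -0.81, 95% interval -1.89 to 0.26). The ranges of the groups overlapped in each of these genes. Cyp2a12, by contrast in spread, had SDs of 0.07 in both groups, with 12.26 and 12.30 as means.

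GFP 4 and GFP 5 were the lowest GFP arrays in Cyp2a4, Cyp2a5, Cyp2b9, Cyp2b10, Cyp2c38, Cyp2c39 and Cyp2c55. They were also the lowest in Cyp3a59 (difference -0.51), Cyp2g1 (0.05) and Cyp2r1 (0.24). This made 10 of the 57 members in all, against 2260 of all 22180 genes (10.2%). When GFP 4 and hApoF 12 were left out together, the difference of Cyp2a4 was -1.45 and passed (limma adjusted p = 0.023), and that of Cyp2c38 was -0.78 (limma adjusted p = 0.049). In both genes GFP 4 was the lowest GFP array and hApoF 12 the highest hApoF array, so leaving them out widens the difference. Each gene passed in this 1 of the 20 alternative fits and not in the other 19. GFP 4 differed from the other GFP arrays in its whole distribution too. Its lower quartile was 3.80, against 3.66 to 3.72 in the other GFP arrays and 3.74 to 3.80 in hApoF arrays. In 6 of the 10 called members it was the GFP array nearest the hApoF values. This was not counted over all genes, so it is not read as a trait of the members. What sets GFP 4 and GFP 5 apart was not tested.

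**Figure D4:**
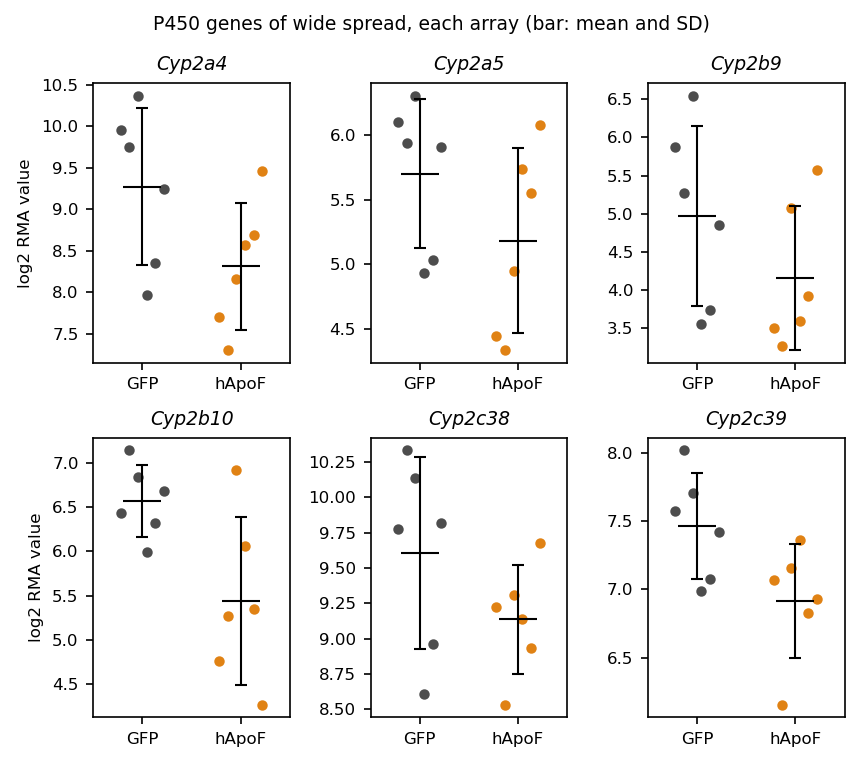
Log2 RMA value (vertical axis, its own range per panel) of each of the 6 GFP and 6 hApoF arrays for 6 members of wide spread, none of which passed, with the mean and SD in black. Groups overlap in every panel, and Cyp2b10 in hApoF livers runs from 4.27 to 6.92.

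Family 1 had 0 of 3 members past the limma test and 1 with an unadjusted p below 0.05, against 4716 of all 22180 genes. Cyp1a2, the AhR-inducible enzyme that is abundant in liver and clears caffeine, had 10.55, 10.85 and 11.13 in GFP livers and 10.96, 11.19 and 11.36 in hApoF livers (difference 0.36, SE 0.11, limma adjusted p = 0.056). It passed without GFP 4 (limma adjusted p = 0.020), its highest GFP array, and without hApoF 7 (0.043), its lowest hApoF array. Leaving either out widens the difference, and it did not pass in the other 10 fits without 1 array. Over the 20 alternative fits it passed in 6 and did not pass in 14. Cyp1a1, its neighbour and the strongest AhR target, stood at 4.82 ± 0.12 (SD, n = 6) with GFP and 4.91 ± 0.21 (n = 6) with hApoF (difference 0.10, 95% interval -0.11 to 0.30). Cyp1b1, active mainly outside liver, had a difference of 0.13 (95% interval -0.05 to 0.31).

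The other subfamilies had no member past the test. Cyp2e1, which oxidises ethanol and acetaminophen, stood at 12.97 ± 0.04 (SD, n = 6) with GFP and 13.08 ± 0.08 (n = 6) with hApoF (difference 0.12, 95% interval -0.01 to 0.25). Cyp2r1, a vitamin D hydroxylase gene, had a difference of 0.24 (95% interval 0.03 to 0.44, limma adjusted p = 0.18). Cyp2f2, known for naphthalene activation in lung and present in periportal hepatocytes, had 0.15 (-0.03 to 0.34). In the Cyp2j subfamily of epoxygenases 7 members were measured, with differences from -0.05 to 0.22, and Cyp2j5, a kidney and liver form, had 0.09 (-0.03 to 0.21). Cyp2ab1 (0.17), Cyp2w1 (0.17), Cyp2t4 (0.12), Cyp2s1 (0.08) and Cyp2g1 (0.05), single members of their subfamilies, all had means below 5.29.

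Genes that serve these enzymes were described from lists. Beside the counts of this and the later lists, 2.11% of all genes were called higher and 4.8% lower. When only brighter genes were tested, these shares were 6.24% and 12.8%. Among 12 receptors and their partners 2 were called higher and 1 lower, and the median difference was 0.14. Nr1i3, the receptor CAR, was higher in every hApoF array than in any GFP array, with 8.98 ± 0.12 (SD, n = 6) against 9.70 ± 0.13 (n = 6), a difference of 0.72 (limma adjusted p = 5.3e-05). Ahrr, the repressor of AhR (0.29, limma adjusted p = 0.037), lost its call without GFP 3, 5 or 6 or hApoF 7, 8, 9 or 12 (0.056 to 0.085), with arrays centred (0.054) and quantile normalized again (0.060). Ncoa1, a coactivator of these receptors, fell (-0.25, limma adjusted p = 0.044) and kept its call without GFP 4 but not without any other single array (0.056 to 0.10). Nr1i2, the receptor PXR, had a difference of 0.16 (limma adjusted p = 0.15) and Ahr one of 0.34 (limma adjusted p = 0.058). Ahr passed without GFP 5 (limma adjusted p = 0.045), its highest GFP array, and without hApoF 8 (0.0496), its lowest hApoF array. It did not pass in the other 10 fits without 1 array, and passed in 4 of the 20 alternative fits.

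Of 11 heme genes 1 rose and 10 did not pass, and the median difference was -0.06. The riser was Alas1, the rate-limiting enzyme of heme synthesis. It rose 1.40-fold with no overlap, from 11.05 ± 0.13 (SD, n = 6) to 11.54 ± 0.16 (n = 6), and passed in all 20 alternative fits (limma adjusted p = 0.0029 with all arrays). Of 4 electron transfer genes 1 rose and 3 did not pass, with a median of 0.07. It was Cyb5a, microsomal cytochrome b5 (difference 0.24, limma adjusted p = 0.028), which lost its call without GFP 1, 2, 3, 5 or 6 or hApoF 7, 9 or 11 (limma adjusted p = 0.051 to 0.066) and with arrays centred (0.057). The reductase gene Por was not analysed here.

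Other targets of AhR, CAR and PXR were listed too. Among 18 of them 4 fell and 1 rose, and the median difference was -0.20. Nqo1, a quinone reductase gene under AhR and Nrf2, fell 1.72-fold, from 6.93 ± 0.38 (SD, n = 6) to 6.15 ± 0.31 (n = 6) (difference -0.79, limma adjusted p = 0.011). The other fallers were Gstm3 (-1.25), Gstm1 (-0.66) and Ephx1 (-0.70), each without overlap (limma adjusted p = 4.4e-04, 4.7e-04 and 0.0022). The riser was Slco1a4, an organic anion transporter gene (0.64, limma adjusted p = 0.025). Whether these genes and the P450 members differ was not tested.

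Of 12 pericentral genes other than P450 genes 6 rose, with a median difference of 0.29. They included Gulo, an enzyme of vitamin C synthesis (0.58, limma adjusted p = 0.0053), Slc1a2, which encodes a glutamate carrier (0.40), Lect2 (0.43) and the glutamine synthetase gene Glul (0.26). Lect2 lost its call without GFP 2 or 6 (limma adjusted p = 0.057 and 0.052), and Glul without GFP 1, 2 or 6 or hApoF 9 (0.053 to 0.063) and with probe sets averaged (0.080). Of 15 sex-biased or growth hormone dependent genes 2 rose, Slco1a1 (0.55) and Susd4 (0.56), both without overlap, with a median of 0.15. Of 13 inflammatory genes known to accompany low P450 levels 2 rose, with a median of 0.15. They were Crp (0.38, limma adjusted p = 0.0051) and Orm1 (0.62, limma adjusted p = 0.034), the latter an acute phase gene of hepatocytes. Orm1 lost its call without GFP 1, 2, 3 or 6 or hApoF 11 (limma adjusted p = 0.055 to 0.082). Saa2 had the highest difference of all 22180 genes, 1.83, but did not pass (limma adjusted p = 0.18). It ran from 6.94 to 10.58 in GFP livers and from 7.38 to 12.69 in hApoF livers. Its highest arrays were hApoF 7 (12.69) and hApoF 11 (11.84). Saa3 went the other way (-0.74, limma adjusted p = 0.35). Over the list 9 differences were positive and 4 negative.

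Hepatocyte markers were bright in all arrays, with Alb, albumin, at 13.44 ± 0.03 (SD, n = 6) with GFP and 13.50 ± 0.03 (n = 6) with hApoF. In limma 0 of the 7 measured passed and 3 had an unadjusted p below 0.05, against 4716 of all 22180 genes. The median difference of these markers was 0.06, and Tat was the lowest in p (0.27, limma adjusted p = 0.057). Some markers of other liver cells rose beside the P450 calls. In macrophage markers 2 of 10 rose, with list means per array of 6.57 to 7.76 in GFP livers and 7.09 to 7.92 in hApoF livers. They were the Kupffer cell genes Clec4f (1.26, limma adjusted p = 0.010) and Vsig4 (1.38, limma adjusted p = 0.038), the latter lost without GFP 1, 2 or 3 or hApoF 7, 9, 11 or 12 (0.057 to 0.088). The other 8 macrophage markers did not pass. The median of the list was 0.16, with 8 positive and 2 negative differences. In endothelial markers 3 of 9 rose, Kdr (0.44), Fcgr2b (0.37) and Dnase1l3 (0.34), with list means of 8.29 to 8.81 against 8.65 to 9.01. In stellate cell and fibroblast markers 3 of 8 rose, Rgs5 (0.54), Dcn (0.26) and Pdgfrb (0.28), with list means of 7.40 to 7.73 against 7.68 to 8.02. That list had a median of 0.27, with 6 positive differences and 2 negative ones, in Des (-0.09) and Col1a1 (-0.004). With arrays centred, Dnase1l3, Dcn and Pdgfrb did not pass (limma adjusted p = 0.069, 0.060 and 0.062), nor did they without most single arrays.

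Of 5 neutrophil markers 1 rose, S100a9 (0.40, limma adjusted p = 0.049), with list means of 4.12 to 4.46 against 4.27 to 4.77. Its call was lost with arrays centred (0.054) and without most single arrays, and its group means, 3.97 and 4.37, lay below 5.29, the median of all genes. The neutrophil list had a median of 0.22, with 4 positive differences and 1 negative, in Ly6g (-0.22). In bile duct markers 0 of 5 passed in limma and 2 had an unadjusted p below 0.05, Epcam (0.29, limma adjusted p = 0.065) and Sox9 (-0.31, limma adjusted p = 0.068), which lay on opposite sides of a list median of 0.02. In lymphocyte markers 0 of 7 passed and 1 had an unadjusted p below 0.05, Cd4 (-0.25, limma adjusted p = 0.085). Cd4 was the 1 negative difference of the list, the other 6 were positive, and the median was 0.07. Beside both of these lists, 4716 of all 22180 genes had an unadjusted p below 0.05 in limma. The part of cell makeup in the P450 differences was not tested, and in whole liver fewer cells of a type and less RNA per cell cannot be told apart.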

How the data were processed

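The authors deposited log2 values per probe set for 12 arrays, 35145 probe sets and 0 missing values. Per the submitters' processing notes these were made with oligo and RMA (background correction, quantile normalization and a summary per probe set). Their versions and settings are not stated: not given in the sources used here. Names came from GEO's platform annotation, which can be old: 23521 had 1 gene symbol, 1814 several and 9810 none listed, and only the first were used. Gene numbers of all 57 members matched the mouse table for GRCm38.p6, used for names, gene type and order only. Dim probe sets were kept.

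The fit was limma 3.58.1 under R 4.3.3 (lmFit, eBayes, no covariates) on all 22180 genes, two-sided, with Benjamini-Hochberg adjustment over all genes at 0.05, and was tested on simulated data. The SE, intervals (95%) and adjusted p-values are from it. Promoter stretches were aligned with Biopython 1.88. The number of arrays limits the precision. Alternatives changed the scaling, the fit settings, the probe set rule, the genes tested and the arrays used.

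Members and lists were chosen with earlier results of these data known. Members named were those that passed, 8 common liver forms and the member with the lowest p in each subfamily without a call. Of each list the text names up to 4 genes that passed with the lowest p, or the gene with the lowest p where none passed, and Nr1i3, Nr1i2 and Ahr. For pericentral genes these are the 4 lowest of 6. Lists covered receptors, electron transfer, heme, other receptor targets, pericentral, sex-biased and inflammatory genes, and markers of 7 cell types. Cyp2b9, Cyp2c37, Cyp2c38, Cyp2c39, Cyp2d13, Slco1a4, Sox9, Saa2, Saa3 and other members given by a value alone were chosen after their values were seen.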

Additional observations from a re-analysis of the deposited data

Results flagged for a closer look

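A single array far from the others of its group was looked for in each named gene and group, 128 combinations in all. It was found in 4, where chance gives about 1 in 20. Among the members it was Cyp2ab1 in GFP 1 (3.48). Among other genes it was the coactivator gene Ncoa1 in GFP 4 (7.99), Ahr in hApoF 10 (9.53) and the stellate cell marker Pdgfrb in hApoF 10 (6.65).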

How the results depend on the processing

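Over the 20 alternative fits, 5 to 9 members were higher (7 with all arrays and default settings) and 2 to 4 lower (3). The number of calls over all genes changed between fits as well. With all arrays and default settings 469 of 22180 genes were higher and 1064 lower. When only brighter genes were tested, 692 of 11090 were higher and 1415 lower. The lowest count of higher members, 5, came with all probe sets in the adjustment and without GFP 1, 2, 3 or 5 or hApoF 9, 10 or 11. The lowest count of lower members, 2, came with all probe sets and without GFP 1, 2, 3 or 6 or hApoF 8, 10 or 12. In each fit with such a lowest count, fewer of all genes passed in that direction than with all arrays and default settings. The ranges are therefore not read as a trait of the members. With all probe sets the 3 calls lost were Cyp2d26, Cyp2d40 and Cyp3a59 (limma adjusted p = 0.053, 0.0503 and 0.0511). Cyp2c55 kept its call when both of its probe sets were averaged, at -0.43 in place of -1.08. The difference of Cyp2g1, 0.05, turned to -0.00577 with array weights and to -0.114 without GFP 4 and hApoF 12, and ran from -0.0867 to 0.148 when 1 array was left out. No paired analysis was possible because the groups share no replicate numbers. Of the 22 members at or below the median brightness of all genes 0 passed in limma. An unadjusted p below 0.05 was seen in 1 of them, against 4716 of all 22180 genes, bright and dim together. The part of brightness in this was not tested, and the listed genes Ahrr and S100a9 passed below that median.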
